A study of Mus musculus with 8 samples.

Results

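The insulin-like growth factor binding protein genes Igfbp2, Igfbp3, Igfbp4, Igfbp5, Igfbp6 and Igfbp7 were followed by symbol in single-cell libraries of sorted mouse vascular cells. They are 6 of the 30406 genes present in all the deposited count matrices. The donors were males of genotype ROSA26-eYFP+/+ Cdh5-CreERT2+: the endothelial Cdh5 promoter drives a Cre that tamoxifen activates and that switches on a yellow fluorescent protein. Tamoxifen was given in the feed for 2 weeks, starting at 6 weeks of age. The test diet, begun at 8 weeks, was either normal chow, with 5.8% fat, or the high fat diet, with 60% fat, and lasted 12 to 13 weeks. Fluorescent cells were sorted from mesentery or from epididymal adipose tissue, digested with actinomycin D present, and each library pooled 6 mice. This gave 4 groups, chow mesentery, high fat mesentery, chow adipose and high fat adipose, with 2 pools in each, 1 from run A and 1 from run B of the experiment. The reporter, the Cre and the tamoxifen were common to every group, so none of the comparisons below contains an untreated or Cre-negative control.

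IGF binding proteins are secreted proteins that hold IGF1 and IGF2 outside cells, lengthen their life in blood and tissue fluid, and set how much of them reaches the IGF1 receptor. Proteases release the ligand by cutting them, and several members also bind matrix or cell surfaces without IGF. IGFBP3 is the main carrier in blood, IGFBP4 is the substrate of the protease PAPP-A, IGFBP5 binds extracellular matrix, and IGFBP6 prefers IGF2. IGFBP7 is a distant relative with low affinity for IGF that is secreted by blood vessels and found in their basement membrane.

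On the GRCm38 mouse genome (GENCODE annotation) Igfbp2 lies at chr1:72824503-72852474 on the plus strand and Igfbp5 at chr1:72857932-72874884 on the minus strand, tail to tail with 5457 bases between them. Igfbp3 lies at chr11:7206086-7213923 on the minus strand, Igfbp4 at chr11:99041244-99054392 on the plus strand and Igfbp6 at chr15:102144362-102149511 on the plus strand. Igfbp7 spans chr5:77349240-77408041 on the minus strand, and its 3' end shares 85 bases with that of Polr2b on the opposite strand. A further opposite-strand transcript, Gm34648, lies within its span. The labels and headers do not say how the counting used strand, and how reads from that shared end were assigned was not examined. The promoters of 3 members are shown: Igfbp3 and Igfbp5, which carried the diet calls, and Igfbp7, the most abundant member. Each is given as the 250 bases before the RefSeq start (GRCm38.p6), written 5' to 3' on the gene's own strand. Capitals mark matches, on either strand, to TATAAA (the TATA box), GGGCGG (the GC box), CACCC (a core bound by Krüppel-like factors), TGANTCA (AP-1), GTAAACA (FOXO) or CACGTG (the E-box).
Igfbp3, chr11:7213924-7214173, minus strand: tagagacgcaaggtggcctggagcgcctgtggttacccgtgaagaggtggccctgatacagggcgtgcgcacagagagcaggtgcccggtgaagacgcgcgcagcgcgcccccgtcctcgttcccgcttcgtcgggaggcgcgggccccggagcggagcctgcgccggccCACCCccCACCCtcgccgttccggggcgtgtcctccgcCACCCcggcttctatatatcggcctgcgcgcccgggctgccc
Igfbp5, chr1:72874866-72875115, minus strand: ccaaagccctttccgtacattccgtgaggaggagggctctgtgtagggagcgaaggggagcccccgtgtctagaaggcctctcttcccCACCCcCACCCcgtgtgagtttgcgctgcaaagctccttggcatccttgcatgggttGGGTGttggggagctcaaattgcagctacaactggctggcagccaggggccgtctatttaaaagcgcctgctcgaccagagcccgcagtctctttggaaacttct
Igfbp7, chr5:77408046-77408295, minus strand: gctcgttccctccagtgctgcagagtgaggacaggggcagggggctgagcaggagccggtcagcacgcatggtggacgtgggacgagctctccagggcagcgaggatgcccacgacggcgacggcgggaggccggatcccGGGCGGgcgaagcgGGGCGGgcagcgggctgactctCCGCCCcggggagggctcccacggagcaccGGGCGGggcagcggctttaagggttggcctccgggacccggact
The Igfbp3 and Igfbp5 promoters each held 3 CACCC matches and none of the other motifs. The Igfbp7 promoter held 4 GGGCGG matches and no CACCC. Of the 32851 mouse promoter windows of this length in the table, 52% held CACCC and 32.7% held GGGCGG. Guanine and cytosine made up 73.2% of the Igfbp3 window, 58.8% of that of Igfbp5 and 74% of that of Igfbp7, beside a median of 52.4% over all windows. All 6 members had a window in the table.

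Levels below are CPM, the UMIs of a gene divided by all UMIs of the cells in question and multiplied by 1e6, scaled by edgeR's TMM factors. Because 3' counting records 1 tag per molecule, CPM values of different genes need no length correction. The libraries held 3461360 to 36779289 UMIs, and median depth was 1161 to 2677 UMIs per barcode in run A and 3185 to 4340 in run B. After filters, 23042 cells fell into 29 clusters made without the members. Clusters were called arterial-like, capillary-like, venous-like or lymphatic-like from markers, each with 2 clusters. In all, 17257 cells lay in endothelial clusters that did not meet the rule for markers of a second cell type. Some such markers remained in them. The 8 adipocyte markers summed to 977 and 2563 CPM in chow mesentery and chow adipose of run B, and to 7.07 to 141 CPM elsewhere. Clusters 15 and 17, included here, were left unnamed because of fibroblast markers among their leading genes. All 10 endothelial markers were detected in each class, with summed levels of 6047 to 11880 CPM. The sort also held fibroblast-like, macrophage-like, T cell-like, B cell-like, mesothelial-like and, nearly all in the chow libraries of run B, adipocyte-like barcodes. Any pair of libraries shared at most 10 barcodes. The runs differed more than the diets for several members, so the diet and tissue comparisons give values by run. Class levels are means over both runs.

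The members differed in level between the 4 endothelial classes. Among these classes Igfbp3 was highest in arterial-like and capillary-like cells and Igfbp4 in arterial-like cells. Within the same classes Igfbp5 was highest in lymphatic-like cells. Igfbp7 had its highest mean in capillary-like cells, though these were not highest in every library. Igfbp6 was found mainly in fibroblast-like and mesothelial-like cells, and Igfbp2 was almost absent. These class levels are descriptions without a test, over 8 libraries (mean ± SD).

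**Figure D1:**
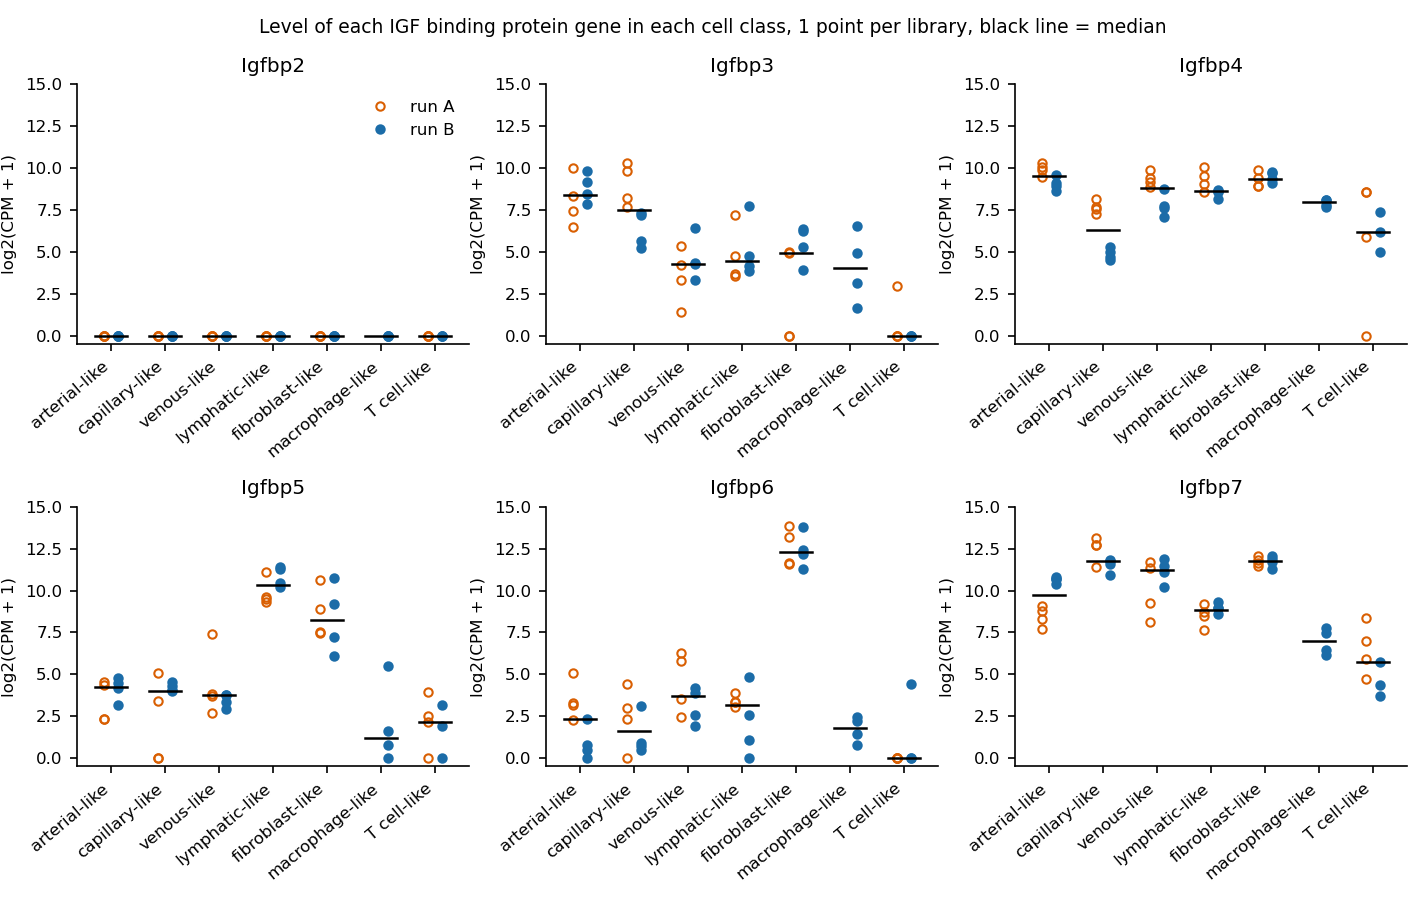
Level of each member, as log2(CPM + 1), in 7 cell classes; each point is 1 library with at least 20 cells of the class, open for run A and filled for run B, and the black line is the median. Igfbp5 in lymphatic-like cells stands apart from the other endothelial classes, but fibroblast-like cells of chow mesentery (1577 and 1703 CPM) reach its range. Igfbp6 in fibroblast-like cells stands apart, whereas Igfbp2 sits at 0 in every class shown.

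Igfbp3 averaged 462.5 ± 348 CPM in arterial-like cells, 389 ± 463 in capillary-like cells, 58.2 ± 77.8 in lymphatic-like cells and 25.1 ± 26.7 in venous-like cells. Neighbours in that order overlapped, but arterial-like and venous-like cells did not, and arterial-like cells were above venous-like cells in 8 of 8 libraries. Arterial-like cells were above capillary-like cells in 2 of 4 libraries of run A and 4 of 4 of run B. Of the 14336 Igfbp3 UMIs in all cells, 43.6% came from arterial-like cells, which made up 10.9% of the cells, and 24.4% from capillary-like cells. A further 10.5% came from cluster 19, an unnamed endothelial cluster led by Glycam1 and Madcam1 that held 1.61% of the cells and averaged 712 CPM. Expression was uneven between cells: the top 10% of arterial-like cells carried 62.5% of that class's Igfbp3 UMIs.

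Igfbp4 averaged 777 ± 301 CPM in arterial-like, 525 ± 259 in lymphatic-like, 456 ± 276 in venous-like and 119 ± 102 in capillary-like cells. Neighbouring classes overlapped, whereas capillary-like cells lay below arterial-like cells and below lymphatic-like cells without overlap. Arterial-like cells exceeded capillary-like cells in 8 of 8 libraries. Within the arterial-like class cluster 5 (led by Gkn3 and Gja5) averaged 1094 CPM and cluster 9 (Col8a1, Hey1) 355. Cluster 14, a mesenteric cluster led by the scavenger receptor gene Marco, averaged 1354 CPM and alone gave 13.9% of all 30881 Igfbp4 UMIs from 2.34% of the cells. Outside the endothelium, mesothelial-like cells measured 2417 CPM of Igfbp4 in the 1 pool with enough of them (24 cells). Fibroblast-like cells measured 481 to 959 CPM, a range that overlaps that of arterial-like cells (397 to 1263 CPM).

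Igfbp5 averaged 1518 ± 846 CPM in lymphatic-like cells and 30.0 ± 55.8 in venous-like, 15.3 ± 8.79 in arterial-like and 14.2 ± 11.1 in capillary-like cells. This was the only step between neighbouring endothelial classes, for any member, without overlap of the libraries. Lymphatic-like cells ran from 643 to 2752 CPM and every other endothelial class from 0 to 168. Lymphatic-like cells, 10.7% of the cells, gave 55.2% of the 20499 Igfbp5 UMIs. Its level was higher still in mesothelial-like cells, at 3294 CPM in the 1 pool with enough of them (24 cells), although they gave only 1.75% of the UMIs. It was also found in cluster 16, an unnamed non-endothelial adipose cluster (1003 CPM), in fibroblast-like cells (613 CPM) and in cluster 10, which carried endothelial and mural markers (450 CPM). Fibroblast-like cells ranged from 479 to 1703 CPM of Igfbp5 in the mesenteric pools and from 65.9 to 186 in the adipose pools.

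Igfbp6 averaged 7153 CPM in fibroblast-like cells and 5.09 to 23.3 CPM in the 4 endothelial classes. Fibroblast-like cells were 3.09% of the cells and gave 90.9% of the 26886 Igfbp6 UMIs. Cluster 22, mesenteric fibroblast-like cells led by Sfrp5 and Thbs4, alone gave 77.3%, at 23810 CPM. Mesothelial-like cells measured 6066 CPM in the 1 pool with enough of them and gave 2.75% of the UMIs, and cluster 16 averaged 788 CPM and gave 4.2%. Cluster 10 measured 734 and 533 CPM in the adipose pools of run A (chow and high fat) and 0 to 2.18 CPM in the 4 pools of run B. Its level in fibroblast-like cells was 14850 and 14100 CPM in chow mesentery, 9408 and 5402 in high fat mesentery, 3233 and 4579 in chow adipose and 3116 and 2543 in high fat adipose (runs A and B). Mesenteric pools were above adipose pools in each diet and run. The fibroblast-like clusters differed between the tissues, with cluster 22 mostly mesenteric and cluster 21 mostly adipose, so a change of level and a change of cluster cannot be told apart in these values.

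Igfbp7 was the most abundant member, with 218533 UMIs. Among the endothelial classes it averaged 4616 ± 2444 CPM in capillary-like, 2107 ± 1292 in venous-like, 998 ± 687 in arterial-like and 446 ± 135 in lymphatic-like cells. Outside the endothelium, fibroblast-like cells measured 2519 to 4276 CPM of Igfbp7, within the range of capillary-like cells (1930 to 8862 CPM). Fibroblast-like cluster 22 averaged 5066 CPM and cluster 16, an unnamed non-endothelial adipose cluster, 3863 CPM. Capillary-like cells did not overlap arterial-like or lymphatic-like cells, while each pair of neighbours in the order overlapped. The order depended on the run. Capillary-like cells were above venous-like cells in 4 of 4 libraries of run A but 2 of 4 of run B. Arterial-like cells were above lymphatic-like cells in 2 of 4 libraries of run A and 4 of 4 of run B. Arterial-like levels were 209 to 542 CPM in run A and 1343 to 1815 in run B. Cluster 19 (9318 CPM) and cluster 23, led by Apln, Chga and Prnd (8639 CPM), exceeded every named class on average. Within the venous-like class, cluster 6 (Cysltr1, Ackr1) averaged 2870 CPM and cluster 8 (Plac8, Adgrg6) 202.

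Igfbp2 gave 77 UMIs in all cells that passed the filters. Of these 55 lay in cluster 16, an unnamed adipose cluster led by Slc38a5, Osr2 and Lamc3, and 19 in the mesothelial-like cluster. A single UMI was found among 77460718 UMIs of the endothelial cells, where a count of 0 would have allowed up to 0.0387 CPM. The gene was not tested in any class.

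**Figure D2:**
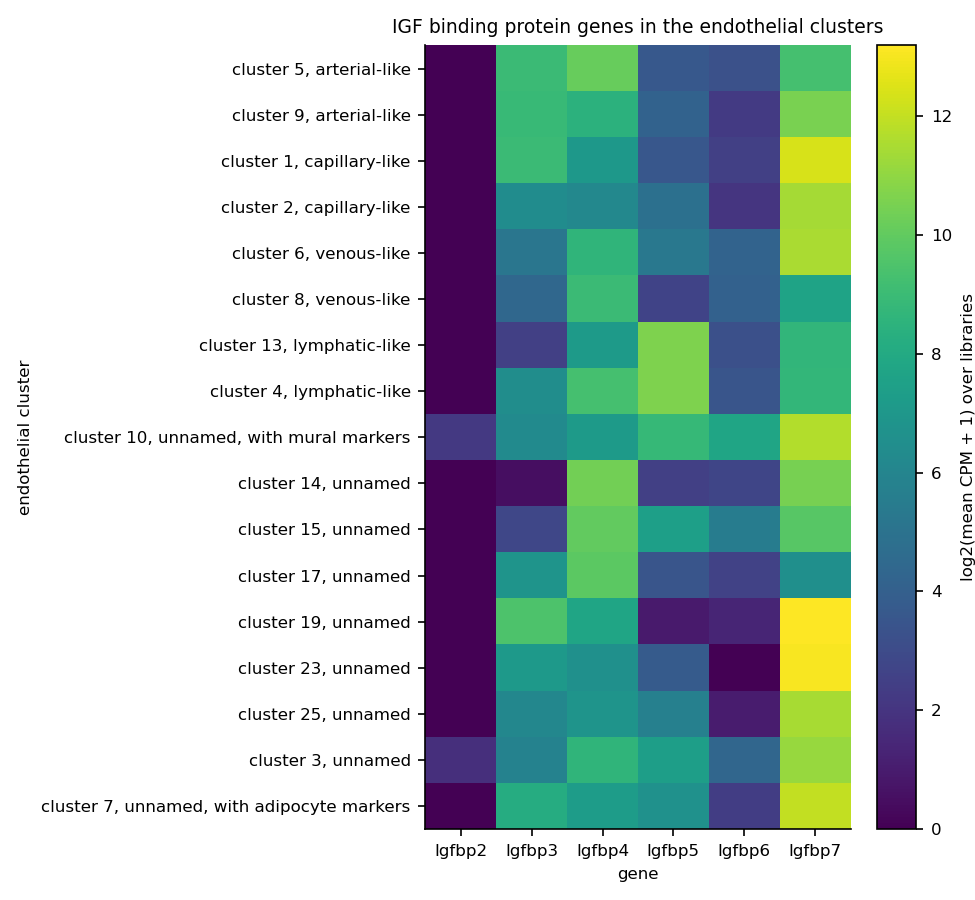
Mean level of each member over libraries, as log2(CPM + 1) in colour, in 17 endothelial clusters; cluster 29, with 28 cells of 1 library, is not drawn. Clusters 4 and 13 are bright for Igfbp5, and clusters 1, 19 and 23 for Igfbp7.

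The effect of diet was tested on counts summed over the cells of a class in each pool, over 8 pools. edgeR's quasi-likelihood test was fitted with the 4 group means, and again with the run as a block, since the experiment was done in 2 repeats and pools of a run deviated together. P-values were adjusted over all genes of a class by the Benjamini-Hochberg method. Without the block no gene of any class passed an adjusted p of 0.05 in any comparison (percent called 0), and no member did. At an unadjusted p of 0.05 the count over all genes of a class was then 28 to 344 for diet, of 8840 to 13292 genes. The calls below are those of edgeR with the block. Only some of the member calls were also made without it, by DESeq2 or with no low count filter. With the block 393 of 51644 tests over the 5 classes (0.761%) passed for diet in mesentery and 162 (0.314%) for diet in adipose. Of the 24 pairs of a member and a class that passed the low count filter, out of 30, 3 passed for diet in mesentery and 2 for diet in adipose, all of them lower on the high fat diet. In these pools fewer expressing cells and less RNA per cell cannot be told apart from the summed counts alone.

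Igfbp3 was the only member with a diet call in arterial-like or capillary-like cells with the block, and it had none in venous-like cells. In venous-like cells it measured 1.72 and 18.7 CPM in chow mesentery (runs A and B) against 8.88 and 19.2 on the high fat diet, and 18.0 and 84.6 in chow adipose tissue against 40.9 and 9.07. These groups overlapped, the adipose pools went opposite ways in the 2 runs, and the changes of 0.48 ± 0.69 and -2.14 ± 0.77 did not pass (adjusted p = 1 for each, edgeR with the block). In capillary-like cells of mesentery it measured 1298 CPM in chow run A and 162 in chow run B, against 293 and 49.2 on the high fat diet. In capillary-like cells of adipose tissue it measured 919.7 and 147 CPM on chow against 205 and 37.6 on the high fat diet. Every high fat pool lay below the chow pool of its run, by 3.29 to 4.49-fold, although the groups overlapped across runs because run A was higher throughout. With the block Igfbp3 fell by 1.92 ± 0.30 (log2 ± SE, adjusted p = 2.93e-06) in mesentery and by 2.05 ± 0.29 (adjusted p = 1.52e-07) in adipose tissue. In capillary-like cells 0.61% and 1.07% of all genes passed in these comparisons. Without the block the changes were -2.18 in both tissues, with an adjusted p of 1 in edgeR.

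Run A held few capillary-like cells, 39 and 43 in the mesenteric pools and 114 and 149 in the adipose pools, against 884 to 2062 in run B. The mesenteric call was lost without the chow pool of run B (adjusted p = 0.116) or the high fat pool of run B (adjusted p = 1), and the adipose call was kept when any single pool was left out. Cluster 2 of this class was filled mainly from chow adipose run B (1686 of 2388 cells). In cluster 1 alone the falls were -2.24 (adjusted p = 9.35e-11) in mesentery and -1.54 (adjusted p = 2.93e-04) in adipose tissue with the block. The summed level of the 8 adipocyte markers in capillary-like cells was 3247 and 3524 CPM in the chow pools of run B and 0 to 235 CPM elsewhere. In run A, where it was 71.0 and 194 CPM on chow, Igfbp3 was 4.42- and 4.49-fold lower on the high fat diet, and adipocyte-like barcodes themselves held 27.6 and 68.6 CPM of Igfbp3. The 13 capillary markers were higher on the high fat diet in 4 of 4 pairs. In mesentery they summed to 16410 and 71160 CPM on chow (runs A and B) against 19240 and 86330, and in adipose tissue to 10970 and 79950 against 49660 and 96370. In adipose run A the cells also lay in different clusters, 99 in cluster 1 and 15 in cluster 2 on chow against 50 and 99 on the high fat diet. The part of these markers in the Igfbp3 result was not tested.

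In arterial-like cells of adipose tissue Igfbp3 measured 1046 and 899.5 CPM on chow and 329.8 and 237 on the high fat diet, without overlap. The fall was 1.86 ± 0.36 on the log2 scale (edgeR with the block, adjusted p = 0.00936), where 0.322% of genes passed. In mesenteric arterial-like cells it measured 173 and 569 CPM on chow and 89.0 and 356 on the high fat diet. Both runs were lower on the high fat diet, by 1.95- and 1.60-fold, and the change of -0.69 ± 0.35 did not pass (adjusted p = 0.948, edgeR with the block). Without the chow mesentery pool of run B that change was 0.37 (adjusted p = 0.92). The difference between the tissues in this change was 1.17 ± 0.50 (interaction, adjusted p = 1), so it was not shown to differ between them. Across arterial-like and capillary-like cells, 8 of 8 comparisons of a high fat pool with the chow pool of its run and tissue gave lower Igfbp3. Over all 4 classes 13 of 16 did, and the 3 exceptions were venous-like. The classes of 1 pool share its mice, so these comparisons are not independent of each other. The adipose arterial call was lost without the high fat pool of run B (adjusted p = 0.991), in cluster 5 alone (-1.97, adjusted p = 0.0623) and in DESeq2 with the block (-1.76, adjusted p = 1). Adipocyte markers in these cells summed to 42.6 and 1498 CPM on chow and 8.25 and 38.9 on the high fat diet. Igfbp3 was 3.17-fold lower on the high fat diet in run A and 3.79-fold lower in run B. The capillary markers in arterial-like cells rose, from 8815 and 42140 CPM to 11680 and 54250 in adipose tissue. In mesentery they rose from 4107 and 22810 CPM to 6939 and 41020. The part of these markers in the arterial-like Igfbp3 result was not tested.

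**Figure D3:**
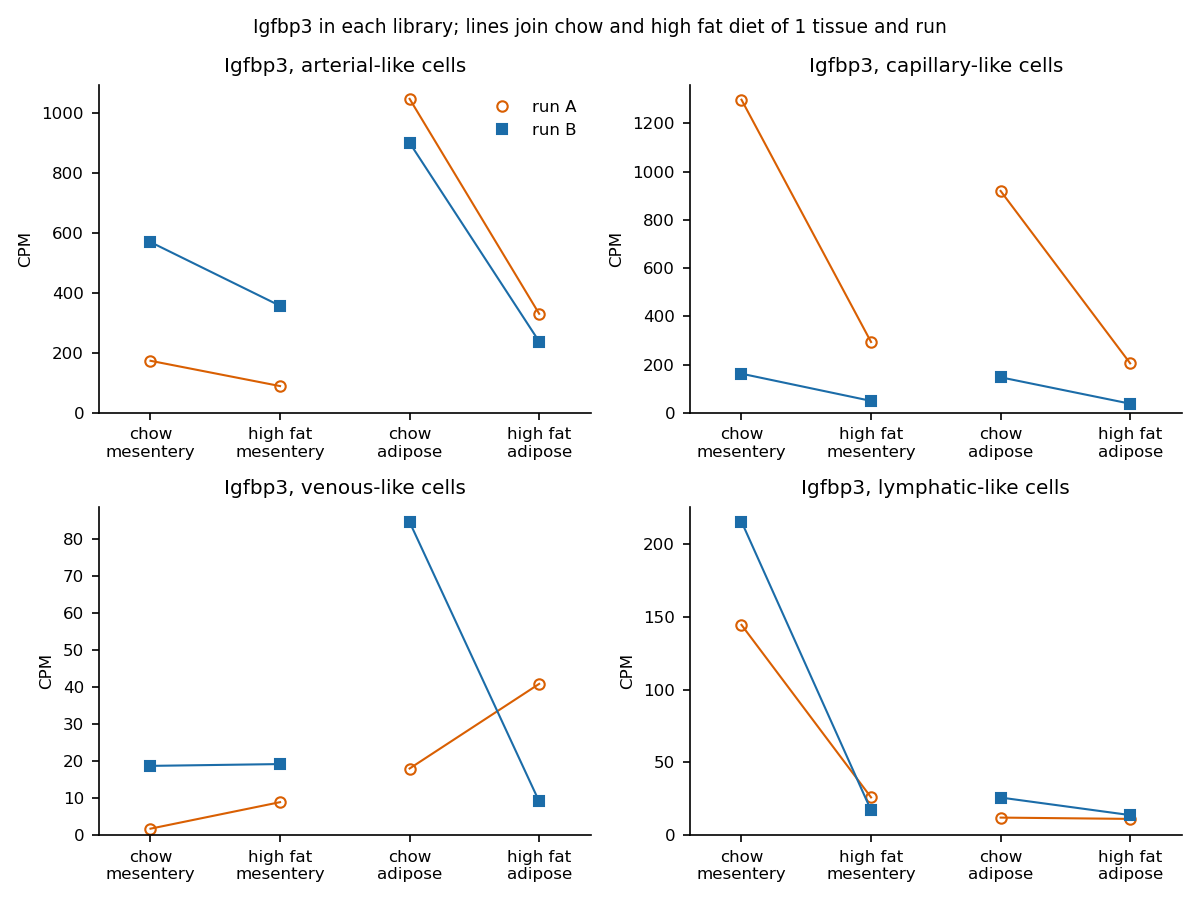
Igfbp3 in CPM in each pool for 4 endothelial classes; open circles are run A, filled squares run B, and lines join chow and high fat diet of 1 tissue and run. All 8 lines fall in arterial-like and capillary-like cells, and in lymphatic-like cells the chow mesentery pools (145 and 216 CPM) lie above all others.

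In lymphatic-like cells of mesentery Igfbp3 measured 144.5 and 215.5 CPM on chow and 25.9 and 17.0 on the high fat diet, without overlap. The fall of 2.97 ± 0.27 on the log2 scale passed with the block (edgeR, adjusted p = 6.56e-07), where 2.71% of all genes passed. It was the member's only diet change that DESeq2 also called without the block (-3.05, adjusted p = 0.000408). In adipose lymphatic-like cells Igfbp3 measured 12.0 and 25.8 CPM on chow and 11.1 and 13.7 on the high fat diet, and the change of -0.59 ± 0.44 did not pass (adjusted p = 0.996). The interaction of diet and tissue was -2.38 ± 0.55 with an adjusted p of 0.0864 (edgeR with the block). It passed in cluster 4 alone (-2.58, adjusted p = 0.0259) and with called doublets kept (-2.99, adjusted p = 0.0167).

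At this depth most lymphatic-like cells had no Igfbp3 UMI, which does not show that they lacked the transcript. Lymphatic-like cells with at least 1 Igfbp3 UMI made up 20.2% and 26.5% in chow mesentery, against 1.47% to 7.69% in the other 6 pools. After each cell was thinned to 1000 UMIs, and 16 to 39 shallower cells were left out of the chow mesentery pools, the shares were 14.6% and 12.4% against 0% to 2.33%. The other 6 pools lost 0 to 162 cells in this step, the most in chow adipose run A (162 of 613). T cell-like cells, taken as a background, had a UMI in 0% to 1.87% of cells at a median of 1636 to 5246 UMIs. The cell with most Igfbp3 UMIs held 27 of the 468 in this class, 5.77%. These UMIs lay in cluster 4 (Reln, Ccl21a, Lyve1), at 180 and 375 CPM in chow mesentery. In cluster 13 (Spp1, Cldn11, Nts) no pool had more than 2 Igfbp3 UMIs.

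Igfbp5 in lymphatic-like cells of mesentery measured 2189 and 2752 CPM on chow and 643 and 1204 on the high fat diet, again without overlap. It fell by 1.51 ± 0.24 on the log2 scale (edgeR with the block, adjusted p = 6.02e-04), and the call was kept without any single pool. In adipose lymphatic-like cells Igfbp5 measured 777 and 2491 CPM on chow and 708 and 1378 on the high fat diet, a change of -0.54 ± 0.24 that did not pass (adjusted p = 0.924). The interaction was -0.97 ± 0.33 (adjusted p = 0.55), so the diet change was not shown to differ between tissues. In cluster 4 the mesenteric values were 2434 and 3986 CPM on chow and 521 and 1191 on the high fat diet, and the fall was -2.02 (adjusted p = 1.33e-08, with the block). In cluster 13 they were 1206 and 1080 CPM on chow and 1136 and 1195 on the high fat diet, values that overlap. Lymphatic-like cells with an Igfbp5 UMI made up 69.8% and 64.1% in chow mesentery and 39.0% and 35.4% in high fat mesentery. Thinned to 1000 UMIs, the shares were 60.3% and 54.3% against 26.4% and 25%.

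Markers of other cells were present in these lymphatic-like pools at different levels. The 8 mesothelial markers, of which 6 were detected, summed to 391.5 and 460.3 CPM in chow mesentery and to 287 and 306 on the high fat diet, and the 8 adipocyte markers to 22.3 and 157 against 7.61 and 9.08. Both were thus lower on the high fat diet in each run, as Igfbp3 and Igfbp5 were. The mesothelial sum on chow was Gpm6a alone, with Msln, Upk3b, Krt19, Krt8, Lrrn4, Wt1 and Upk1b at 0 in both chow pools. The 11 venous markers summed to 1515 and 2187 CPM on chow and 1032 and 1826 on the high fat diet, and the 13 capillary markers to 1687 and 2732 against 1726 and 3067. In mesentery the 9 fibroblast markers, Igfbp5 being expressed by fibroblast-like cells, summed to 34.2 and 56.2 CPM on chow and 35.0 and 68.1 on the high fat diet. The 10 mural markers summed to 109 and 72.1 CPM on chow and 53.3 and 46.5 on the high fat diet, with Pdgfrb, Myh11, Cspg4, Notch3 and Higd1b at 0 in both chow pools. The 9 lymphatic markers summed to 32180 and 33780 CPM on chow and 35950 and 40700 on the high fat diet. The part of these markers in the Igfbp3 and Igfbp5 results was not tested.

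**Figure D4:**
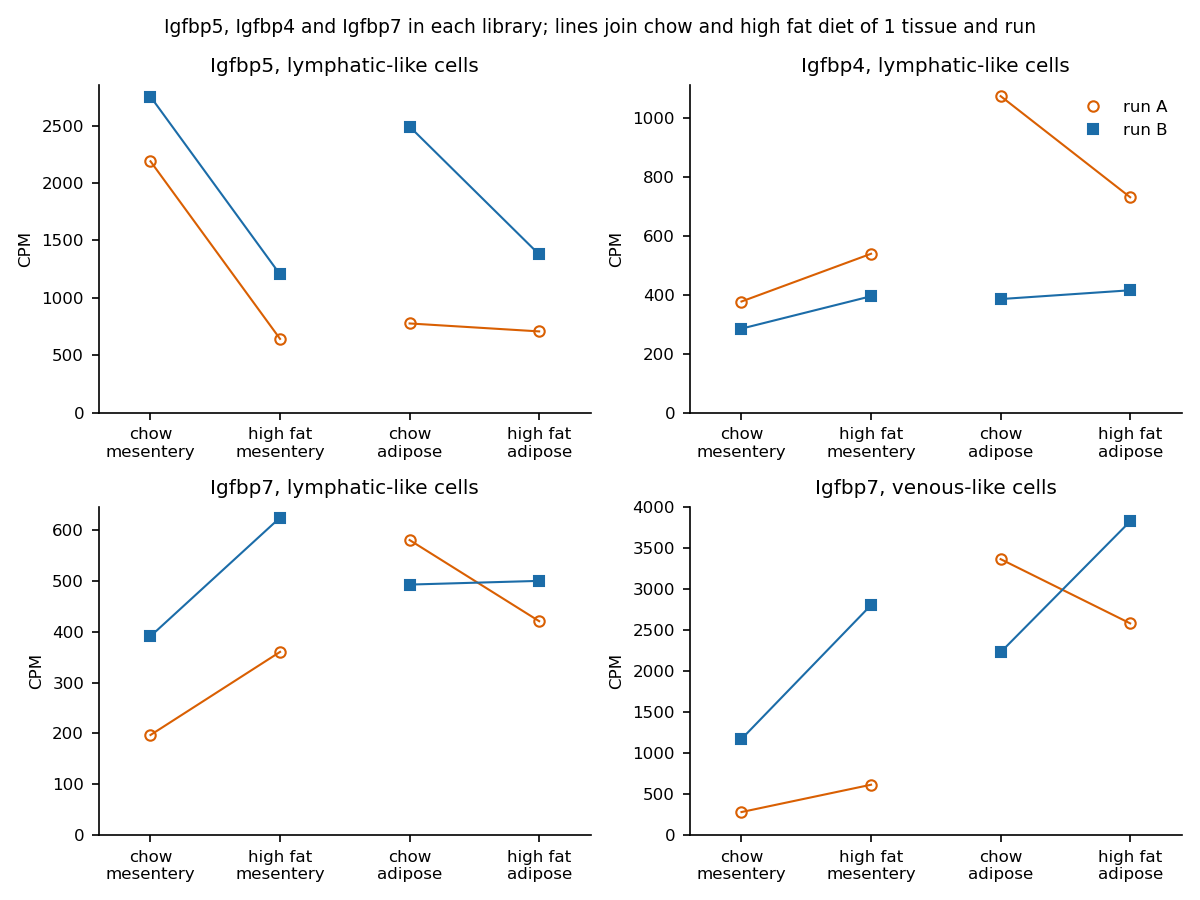
Igfbp5, Igfbp4 and Igfbp7 in CPM in each pool, for the classes in which a comparison passed with the block; open circles are run A, filled squares run B, and lines join chow and high fat diet of 1 tissue and run. Igfbp5 falls in both runs in mesentery, and Igfbp7 in venous-like cells is lowest in chow mesentery run A.

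Igfbp4, Igfbp6 and Igfbp7 gave no diet call in any class with the block. For Igfbp4 the nearest was mesenteric arterial-like cells, at 941 and 779 CPM on chow and 719.7 and 397 on the high fat diet, a change of -0.73 ± 0.23 (adjusted p = 0.247, edgeR with the block). It passed at a mitochondrial limit of 20% (-0.93, adjusted p = 0.0373). Igfbp7 in mesenteric lymphatic-like cells measured 197 and 391.5 CPM on chow and 361 and 625 on the high fat diet, a change of 0.74 ± 0.24 (adjusted p = 0.108). Igfbp6 was at or below 77.9 CPM in every endothelial class and pool. Over all endothelial cells together no member passed for diet, Igfbp3 in adipose tissue having the largest change at -1.65 ± 0.47 (adjusted p = 0.963).

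Between tissues on chow, 6 of the 24 tested pairs of member and class passed with the block, beside 536 of 51644 tests (1.04%) over all genes. Here a positive value is higher in mesentery. Without the block none passed, with 48 to 522 genes per class at an unadjusted p of 0.05. On the high fat diet no member passed, beside 62 of 51644 tests (0.12%). For the interaction of diet and tissue no member passed in either fit, beside 19 of 51644 tests (0.0368%) with the block. The comparisons of tissue on chow and of diet share the chow pools, so their values are set side by side and not counted as separate evidence.

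Igfbp3 differed between tissues in opposite directions in lymphatic-like and arterial-like cells. In lymphatic-like cells the chow values, 144.5 and 215.5 CPM in mesentery and 12.0 and 25.8 in adipose tissue, differed by 3.25 ± 0.30 on the log2 scale (edgeR with the block, adjusted p = 4.17e-07), where 1.97% of genes passed. The call was kept without any single pool, and DESeq2 without the block also made it (3.25, adjusted p = 0.000282). In arterial-like cells the chow values, 173 and 569 CPM in mesentery and 1046 and 899.5 in adipose tissue, did not overlap and differed by -1.43 ± 0.35 (adjusted p = 0.0469), where 0.821% passed. That call was lost without either mesenteric pool (adjusted p = 0.182 and 0.0715 for runs A and B) or without the adipose pool of run B (adjusted p = 0.0552), and in DESeq2 with the block (adjusted p = 1). On the high fat diet the same tissue differences were 0.87 ± 0.41 (adjusted p = 0.788) in lymphatic-like and -0.25 ± 0.37 (adjusted p = 1) in arterial-like cells.

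In lymphatic-like cells Igfbp4 and Igfbp7 were lower in mesentery than in adipose tissue on chow. Igfbp4 measured 377 and 285 CPM in mesentery and 1073 and 385 in adipose tissue, a difference of -1.01 ± 0.23 (edgeR with the block, adjusted p = 0.0189). Igfbp7 measured 197 and 391.5 CPM in mesentery and 581 and 493 in adipose tissue, a difference of -0.94 ± 0.24 (adjusted p = 0.0399). Neither pair of groups overlapped, but both differences were larger in run A (2.85- and 2.95-fold) than in run B (1.35- and 1.26-fold). Both calls were lost without the chow mesentery pool of run A (adjusted p = 0.325 and 0.53) or the chow adipose pool of run A (adjusted p = 0.439 and 0.548). The Igfbp7 call was also lost without either high fat adipose pool, neither of which is in this comparison, and in DESeq2 with the block (adjusted p = 0.107). In cluster 4 alone the Igfbp7 difference was -2.03 (adjusted p = 1.3e-07).

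In venous-like cells Igfbp7 and Igfbp3 were lower in mesentery on chow, and the 2 clusters of the class were filled differently by the tissues. Igfbp7 measured 280 and 1170 CPM in chow mesentery and 3362 and 2227 in chow adipose tissue, a difference of -2.37 ± 0.49 (edgeR with the block, adjusted p = 0.0139), where 1.9% of genes passed. Igfbp3 measured 1.72 and 18.7 CPM in mesentery and 18.0 and 84.6 in adipose tissue, a difference of -2.47 ± 0.62 (adjusted p = 0.0483), and these groups overlapped. Cluster 8, at a mean of 202 CPM of Igfbp7, held 483 and 546 of the 563 and 727 venous-like cells of chow mesentery, but 4 and 24 of the 99 and 224 of chow adipose tissue. In cluster 6 alone the differences were -0.61 for Igfbp7 and -0.57 for Igfbp3, and neither passed (adjusted p = 0.999 for each). Both calls were also lost with a mitochondrial limit of 20% (Igfbp7 -0.10, adjusted p = 0.999; Igfbp3 -1.58, adjusted p = 0.302), with doublets kept (-0.84, adjusted p = 0.32; -1.92, adjusted p = 0.258) and at a cluster resolution of 2.0 (-0.84, adjusted p = 0.334; -2.28, adjusted p = 0.16). In that cluster Igfbp7 measured 1090 and 3608 CPM in chow mesentery and 3507 and 2497 in chow adipose tissue, which overlap.

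**Figure D5:**
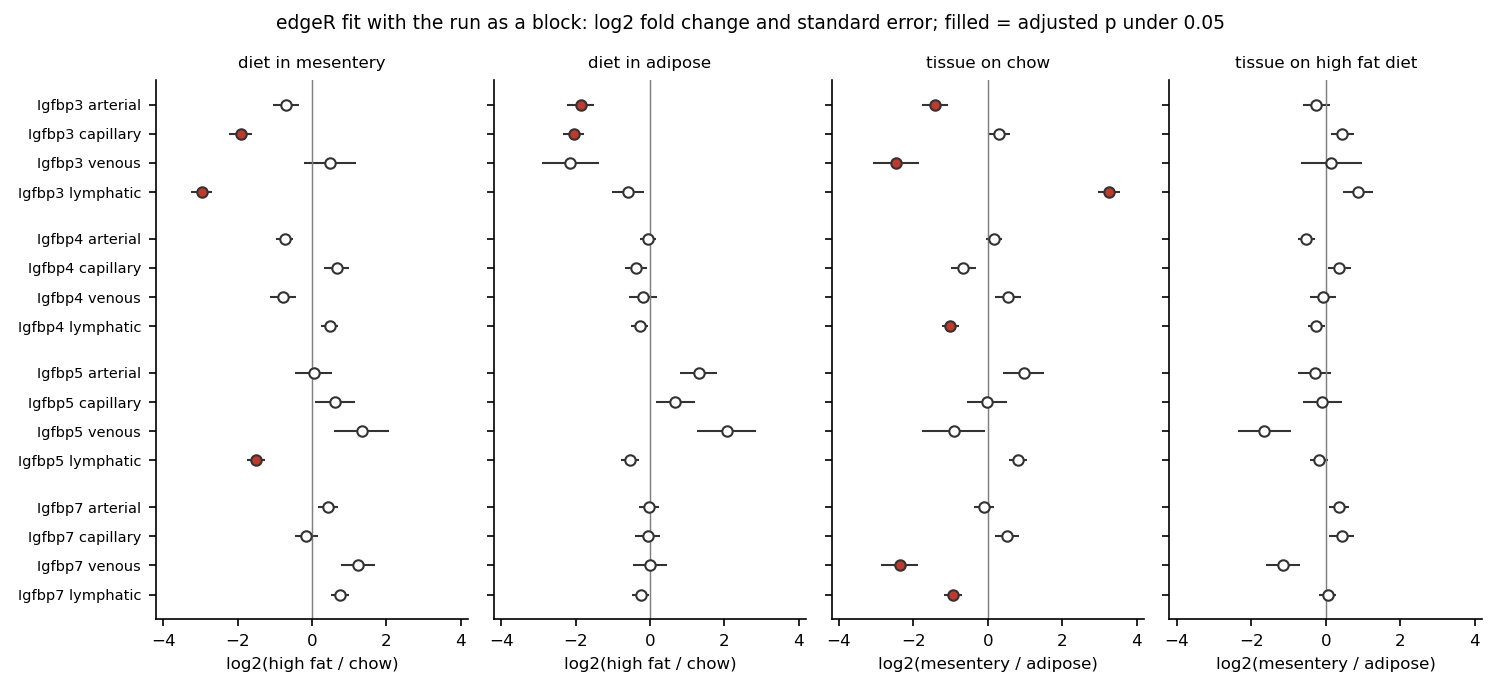
log2 fold change with its standard error (edgeR with the run as a block) for 4 members in 4 endothelial classes and 4 comparisons; red points have an adjusted p under 0.05. Igfbp3 carries 7 of the 11 red points, and none lies in the comparison of tissues on the high fat diet.

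The ligands and receptors were measured in the same cells. Igf1, a secreted growth factor, was highest in macrophage-like (449 CPM) and fibroblast-like cells (407 CPM) and measured 4.68 to 58.3 CPM in the endothelial classes. Igf2, the fetal-type ligand, was an arterial-like transcript with a wide run difference, 0 to 24.3 CPM in mesenteric run A and 547 and 146 in mesenteric run B (chow and high fat). Igf1r, the signalling receptor, varied little between classes, from 51.0 ± 9.87 CPM in lymphatic-like to 81.8 ± 43.6 in capillary-like cells. Insr, the insulin receptor, was highest in venous-like cells (139 ± 40.3 CPM), Igf2r, which clears IGF2, ranged from 38.9 to 85.9 CPM, and Tmem219, reported as an IGFBP3 receptor, from 30.6 to 36.4 CPM. Igfals, the third partner of the blood complex, had 25 UMIs in all endothelial cells, and Igfbp1, next to Igfbp3 on the chromosome, had none.

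Of the binding protein proteases, Htra1 was arterial-like (382 ± 211 CPM, against 1.89 in lymphatic-like cells) and Pappa, which cuts IGFBP4 and IGFBP5, was detected mainly in lymphatic-like cells (18.1 ± 5.59 CPM). Stc1, an inhibitor of PAPP-A, measured 90.1 ± 37.1 CPM in arterial-like and 70.0 ± 44.0 in lymphatic-like cells. Lrp1, an endocytic receptor that binds IGFBP3, was a fibroblast-like transcript (641 CPM) and stayed at or below 9.10 CPM in the endothelial classes. The adapters Irs1 and Irs2 stayed at 0.164 to 2.69 CPM in the 4 endothelial classes.

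Across 26 genes of the IGF axis and of relatives that share its binding domain, 72 pairs of gene and class were tested. With the block 7 passed for diet in mesentery (1 higher and 6 lower on the high fat diet), 2 for diet in adipose tissue (both lower), 2 for tissue on chow (both lower in mesentery) and 3 for tissue on the high fat diet (2 higher and 1 lower in mesentery). None passed for the interaction or, in any comparison, without the block. The list's median change for diet in mesentery was -0.32 in capillary-like and -0.22 in lymphatic-like cells, beside medians of -0.00 for all genes of both classes.

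In capillary-like cells Esm1 and Ccn2 fell together with Igfbp3 on the high fat diet in both tissues. Esm1, which encodes the proteoglycan endocan of sprouting endothelium, measured 132 and 59.4 CPM in chow mesentery against 18.9 and 7.51, and 263 and 31.6 in chow adipose tissue against 24.6 and 8.20. Its changes were -2.82 ± 0.43 (edgeR with the block, adjusted p = 1.51e-06) and -2.49 ± 0.40 (adjusted p = 4.89e-06). Ccn2, a matrix-associated protein, changed by -1.72 ± 0.40 (adjusted p = 0.0125) and -2.25 ± 0.41 (adjusted p = 1.47e-04). The groups of Esm1 did not overlap in either tissue, nor did those of Ccn2. In high fat mesentery run A the capillary-like cells held 99466 UMIs, so that 3 counts equal 28.4 CPM. The Esm1 value of 18.9 CPM there thus rests on fewer than 3 UMIs.

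In mesenteric lymphatic-like cells Igf2r, at 48.6 and 70.4 CPM on chow and 19.0 and 26.1 on the high fat diet, changed by -1.37 ± 0.28 (edgeR with the block, adjusted p = 0.00669). Ccn3 changed by -1.41 ± 0.31 (adjusted p = 0.0108) and Ccn1 by -0.96 ± 0.25 (adjusted p = 0.0367). Igf2 changed by 2.32 ± 0.35 (adjusted p = 3.20e-04), but on 40 UMIs on chow, all from run B, against 149, and its groups overlapped, as did those of Ccn1. Igf2 in mesenteric arterial-like cells changed by -1.62 ± 0.37 (adjusted p = 0.032) on 942 and 381 UMIs, with 0 CPM in chow run A. In venous-like cells Igf1 was lower in mesentery than in adipose tissue on chow (-3.01 ± 0.37, adjusted p = 4.40e-04) and on the high fat diet (-2.21 ± 0.40, adjusted p = 0.0374), as was Stc1 on chow (-3.30 ± 0.69, adjusted p = 0.0154). As described for Igfbp7, the clusters of this class were filled differently by the tissues. A change of level and a change of cluster cannot be told apart in these class sums. On the high fat diet, between tissues, Ccn3 in arterial-like cells differed by 5.40 ± 0.82 (adjusted p = 6.06e-04) and Igf2 in lymphatic-like cells by 4.0 ± 0.44 (adjusted p = 9.72e-06), the latter on 149 and 9 UMIs with overlapping groups.

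For each member the 3 genes with the most similar pattern were taken over 58 pairs of class and library, by Pearson's r of log2(CPM + 1) centred within each run, among 8849 genes. Pairs from 1 library share its depth, and r is a description. The genes nearest Igfbp3 were Fam57a, B4galt4 and Notch4 (r = 0.827, 0.824 and 0.817), and those nearest Igfbp4 were Timp2, Pdlim4 and Cpq (0.84, 0.817 and 0.81). Plce1, Ptprf and Prelp lay nearest Igfbp5 (0.88, 0.877 and 0.854). Gabra3, Fzd2 and Smoc2 lay nearest Igfbp6 (0.926, 0.925 and 0.919). Serpinh1, Col4a1 and Hspg2 lay nearest Igfbp7 (0.879, 0.878 and 0.874); Col4a1 and Hspg2 encode basement membrane collagen and perlecan, and Serpinh1 the collagen chaperone of the endoplasmic reticulum. Igfbp2, at a mean of 2.46 CPM over these pairs, was under the 10 CPM minimum and was not ranked.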

How the data were processed

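For 8 libraries of 10x 3' sequencing the deposited values are raw UMI counts, made with Cell Ranger 3.0.2 in run A and 5.0.0 in run B per the file headers, with mm10 and Seurat 4.3.0 named in the submitters' processing notes. Barcodes with at least 500 UMIs, 300 genes and at most 10% mitochondrial counts were kept (23970 of 27944). The automatic doublet call marked only 48, so 928 barcodes (3.87%) were removed at an expected rate instead. Cells were clustered with scanpy 1.11.5 (2000 variable genes without the members and the IGF lists, 30 components, Leiden resolution 1.0), and clusters were named from markers. Counts summed per class and pool were tested with edgeR 4.0.16 (quasi-likelihood, TMM, filterByExpr, all 8 pools in 1 fit) at an adjusted p of 0.05. The design named no block, and the fit with the run as a replicate block was its alternative. The labels state that the experiment was done in 2 independent repeats, and the deviations of same-run pools correlated at 0.298 to 0.794 between groups, so the run letters were taken to pair the pools. P-values without the block measure the spread between pools of 6 mice within a group. Those with the block measure what is left of that spread after the shared difference between the runs is removed. Intervals for counts of 0 use 3 counts and cover counting error only.

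The members and lists were chosen with earlier results of these data known. All members were named, as were list genes that passed in either fit, ligands and receptors, and the 3 genes most like each member. The levels of the proteases, their inhibitors and the adapters were added after their values were seen. Scripts were tested on simulated data. DESeq2 1.42.0, no low count filter, a mitochondrial limit of 20%, doublets kept, a resolution of 2.0, the largest cluster of each class and leaving out each pool were the alternatives.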

Additional observations from a re-analysis of the deposited data

How the results depend on the processing

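The number of member calls rested on the run as a replicate block: with it 3, 2 and 6 passed for diet in mesentery, diet in adipose tissue and tissue on chow, and without it 0, and the cause was not tested. In the same order, DESeq2 gave 1, 0 and 1 without the block and 3, 1 and 3 with it, and no low count filter gave 1, 2 and 3 without the block and 6, 4 and 7 with it. With the block, a mitochondrial limit of 20% gave 4, 2 and 4, doublets kept 3, 2 and 3, resolution 2.0 3, 2 and 4, and the largest cluster of each class 4, 2 and 5. For tissue on the high fat diet no filter with the block gave 1, and for the interaction no filter gave 1, doublets kept 1 and the largest clusters 2 with the block. Leaving out 1 pool gave 0 member calls without the block in every comparison; with it 2 to 9, 2 to 3, 3 to 6, 0 to 1 (tissue on the high fat diet) and 0 to 2 (interaction).

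For the IGF axis lists the calls for diet in mesentery, diet in adipose tissue, tissue on chow and tissue on the high fat diet were 7, 2, 2 and 3 with the replicate block. They were 2, 1, 2 and 2 in DESeq2 with the block, 3, 1, 2 and 3 with no filter, and 14, 3, 6 and 3 with no filter and the block. With the block they were 7, 2, 1 and 3 at the mitochondrial limit of 20%, 8, 2, 2 and 2 with doublets kept, 7, 2, 1 and 1 at resolution 2.0 and 6, 2, 2 and 1 in the largest clusters. Leaving out 1 pool gave 0 without the block and 0 to 12 (11 without either run A adipose pool), 1 to 4, 1 to 8 and 0 to 3 with it. The 14 single-gene changes followed kept their direction in every alternative run except mesenteric arterial-like Igfbp3, at 0.40 without and 0.37 with the block when the chow mesentery pool of run B was left out (lowest value over the left-out pools -2.11 without the block). All 60 class levels moved by less than 1 SD. That SD was taken over the 8 pools of both runs and exceeded the mean for some levels, such as Igfbp3 in capillary-like cells (389 ± 463 CPM). For such levels this limit could not show a fall. Alternatives by largest cluster, and those joining the block with the mitochondrial limit, doublets or resolution, were chosen after seeing the data. Run A held few capillary-like and arterial-like cells, which limits precision there.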
